A study of Mus musculus with 9 samples.

Results

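Of the 55487 gene identifiers in the count lists, 10 genes of blood coagulation and plasminogen activation were examined: F3, F7, F10, F13a1, Thbd, Thbs1, Plau, Plaur, Procr and Pros1. They were taken by name, by a rule that uses no measured value, and all 10 were found, but they were chosen with earlier results of these data known. RNA was sequenced from unstimulated RAW264.7 cells, a mouse macrophage line, in 3 libraries of each of 3 C/EBPδ genotypes. Wild-type cells carried the unedited Cebpd gene. Both engineered genotypes came from CRISPR/Cas9 guides placed on either side of the region that encodes the transactivation domain, and both were homozygous. In ΔTAD cells this domain was removed with the reading frame kept, which was meant to leave a protein that still binds DNA, whereas the knock-out cells lost the frame. The series describes the engineered cells as independent clones, but whether the wild-type libraries came from separate clones or cultures was not stated, and p-values therefore measure the spread between these libraries, which may be technical. The question put to these genes was how each was expressed in the 3 genotypes, and whether loss of the protein and loss of its transactivation domain went with the same change.

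Coagulation starts when tissue factor, the membrane protein encoded by F3, binds factor VIIa, the protease made from F7, and the complex activates factor X, encoded by F10. Factor Xa makes thrombin, thrombin makes fibrin, and factor XIII, whose catalytic subunit is encoded by F13a1, links the fibrin strands. Thrombomodulin (Thbd) and the endothelial protein C receptor (Procr) bring thrombin and protein C together, and activated protein C works with protein S (Pros1) to stop clotting. Clots are dissolved by plasmin, which urokinase (Plau) releases from plasminogen, often while bound to its receptor uPAR (Plaur), and thrombospondin 1 (Thbs1) is a matrix protein that binds several components of this system. Monocytes and macrophages are known sources of tissue factor, urokinase and its receptor, and C/EBPδ belongs to a family of factors that bind the CCAAT/enhancer sequence.

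Between 16113306 and 20981829 counts per library fell on genes. ΔTAD replicate 1 stood apart. The gene CT010467.1 took 9.59 and 9.45 times the share of counts that it took in ΔTAD replicates 2 and 3, Lars2 took 14.0 and 12.3 times and mt-Rnr2 11.9 and 12.3 times that share. With CT010467.1 left out, chi-square per degree of freedom was still 23.2 and 23.8 between replicate 1 and the other ΔTAD libraries, against 2.24 between replicates 2 and 3. Cebpd itself was not called in either engineered genotype, with 6.13, 7.29 and 6.12 CPM (counts scaled to the size of the library) in the wild-type cells, 5.22, 5.50 and 5.61 in the knock-out cells and 4.90, 5.23 and 6.19 in the ΔTAD cells (edgeR adjusted p = 0.0850 and 0.0931 against wild-type). The knock-out libraries lay below all wild-type libraries, and the ΔTAD libraries overlapped them. Its counts over the whole transcript, 562 exonic bases of which overlap Spidr, do not test the edit. Of 10 macrophage markers, 9 exceeded 3 counts in every genotype (Mertk did not), and their summed level ran from 2782 to 2952 CPM in wild-type libraries, 3816 to 4183 in knock-out libraries and 6237 to 6379 in ΔTAD libraries. Lyz2 carried most of this, with means of 1167, 2114 and 4192 CPM in the same order, and without it the sums were 1683 to 1768, 1809 to 1903 and 2107 to 2134 CPM. Of the 9, 6 were called higher, 1 (Fcgr1) lower and 2 not in knock-out cells, and 7 higher, 1 (Fcgr1) lower and 1 not in ΔTAD cells. Over all genes tested, 22.8% were called higher and 22.4% lower in knock-out and 26.3% and 23.4% in ΔTAD cells. The part of these markers in the results that follow was not tested, and in bulk RNA fewer cells of a type and less RNA per cell cannot be told apart.

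Promoter sequence is shown for the 3 genes that were called lower in both engineered genotypes, F3, F10 and Plaur, and for Procr, which holds the only other C/EBP match. Of these, F3 was tested only because it was high in wild-type libraries, so its calls against wild-type carry no weight. The windows are the 250 bases before the RefSeq start on GRCm38.p6, 5′ to 3′, and capitals mark the C/EBP motif TTGCNNAA and the AP-1 motif TGANTCA, searched on both strands. Of the 10 genes, 7 were matched in the promoter table, and Plau, Thbd and Thbs1 were not.
F3, chr3:121723287-121723536, plus strand: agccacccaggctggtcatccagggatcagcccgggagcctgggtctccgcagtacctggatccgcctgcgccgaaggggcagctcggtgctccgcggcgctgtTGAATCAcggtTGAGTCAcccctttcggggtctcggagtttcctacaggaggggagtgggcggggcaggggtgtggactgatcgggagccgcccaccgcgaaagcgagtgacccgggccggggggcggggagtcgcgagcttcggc
F10, chr8:13037058-13037307, plus strand: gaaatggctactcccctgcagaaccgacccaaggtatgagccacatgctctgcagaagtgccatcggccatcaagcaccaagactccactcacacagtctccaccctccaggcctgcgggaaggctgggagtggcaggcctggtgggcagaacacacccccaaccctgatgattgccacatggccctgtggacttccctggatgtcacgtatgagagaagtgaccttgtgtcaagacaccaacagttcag
Plaur, chr7:24462233-24462482, plus strand: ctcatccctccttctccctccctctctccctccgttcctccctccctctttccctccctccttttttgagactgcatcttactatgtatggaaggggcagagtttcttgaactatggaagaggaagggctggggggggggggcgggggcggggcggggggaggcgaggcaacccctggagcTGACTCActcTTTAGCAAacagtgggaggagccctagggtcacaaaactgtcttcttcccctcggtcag
Procr, chr2:155750967-155751216, plus strand: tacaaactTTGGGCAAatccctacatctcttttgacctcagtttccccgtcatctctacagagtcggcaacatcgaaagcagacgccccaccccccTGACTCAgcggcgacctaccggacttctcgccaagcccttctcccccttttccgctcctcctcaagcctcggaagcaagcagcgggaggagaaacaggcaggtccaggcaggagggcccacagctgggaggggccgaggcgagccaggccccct

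The Plaur window held TTTAGCAA, a match of the C/EBP motif on the opposite strand, 59 bases before the start and the AP-1 match TGACTCA 69 bases before it. Procr had TTGGGCAA at 242 bases and TGACTCA at 154 bases, and F3 had TGAATCA at 146 bases and TGAGTCA at 135 bases. F10 held neither motif, and the palindrome TTGCGCAA was in none of the 4 windows. Among 32851 windows of the same length, 9.56% held TTGCNNAA, 6.75% held TGANTCA and 0.164% held TTGCGCAA. The CCAAT box, present in 33.8% of windows, was matched in F7 at 73 bases and in F13a1 at 244 bases before the start. These matches describe letters in the windows and no binding was measured.

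The 10 genes covered a wide range of expression in wild-type cells. Urokinase was far above the rest, with 779 ± 45.7 RPKM (counts scaled by library and exon length, SD, n = 3), which placed it 21 among 14301 tested genes with a known length. Its receptor followed at 50.7 ± 1.54 RPKM and rank 960. Procr at 5.89 ± 0.461 RPKM and F10 at 5.45 ± 0.479 RPKM came next, and their libraries overlapped. F7 had 0.620 ± 0.0852 RPKM, above the ranges of Thbd (0.140 to 0.455), F3 (0.240 to 0.321) and Pros1 (0.207 to 0.305), which overlapped one another. Plau, Plaur, Procr and F10 kept this order of means in the other two genotypes, whereas in ΔTAD cells Pros1 (0.386 ± 0.0544 RPKM) lay above F7 (0.179 ± 0.0465 RPKM). F13a1 and Thbs1 had 0 counts in all 9 libraries, where 3 counts correspond to 0.143 to 0.210 CPM depending on the library. Thus 8 of 10 genes gave any count and 7 passed the filter on low counts. F3 passed through its 3 wild-type libraries alone, and F7 through its 3 wild-type and 2 of its knock-out libraries.

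**Figure D1:**
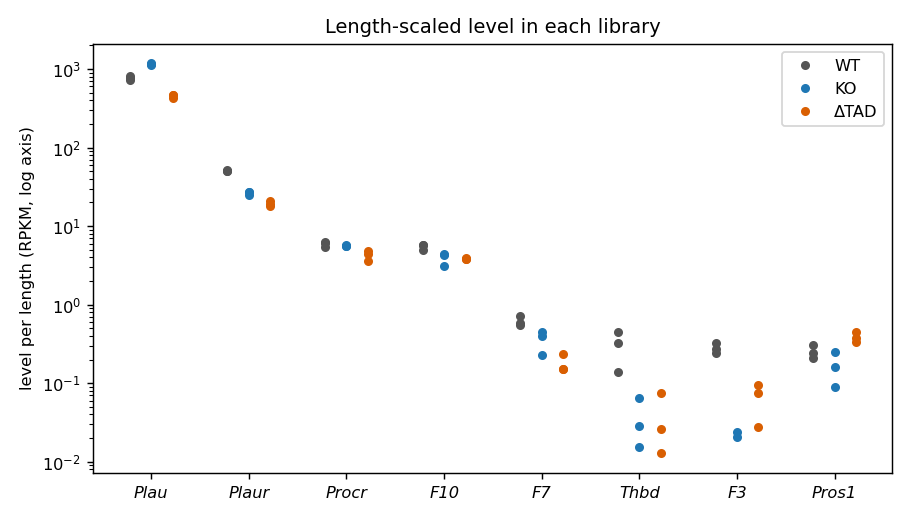
RPKM of the 8 genes with any count in each library on a log axis, for wild-type (WT), knock-out (KO) and ΔTAD cells. Plau lies above all others in every genotype, and the knock-out library of F3 with 0 counts cannot be drawn on this axis.

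The genotypes were compared with edgeR over all genes tested, and a gene was called at an adjusted p under 0.01. In knock-out against wild-type cells, 4 of the 10 genes were called, Plau higher and F3, F10 and Plaur lower, while F7, Procr and Pros1 were not called and Thbd, F13a1 and Thbs1 were not tested. Over all genes tested 45.2% were called, 22.8% higher and 22.4% lower. In ΔTAD against wild-type cells, 6 were called, all of them lower (F3, F7, F10, Plau, Plaur and Procr), and Pros1 was not called, beside 49.7% of all genes, 26.3% higher and 23.4% lower. In knock-out against ΔTAD cells, 4 were called, Plau, Plaur and Procr higher in knock-out and Pros1 lower, beside 33.0% of all genes, 13.9% higher and 19.1% lower. Both engineered genotypes were set against the same wild-type libraries, so the values of these comparisons are not independent. F3, F10 and Plaur were called lower in both, as were 15.4% of all genes. Plau was called higher in knock-out and lower in ΔTAD cells, a combination that 0.692% of all genes, 99 of 14312, had. Since F3 was tested only because it was high in wild-type libraries, its calls against wild-type carry no weight, and without it 3 of 6 tested genes were called in knock-out and 5 of 6 in ΔTAD against wild-type. Among those 5 was F7, which none of the ΔTAD libraries carried past the filter, so its ΔTAD call carries little weight. The libraries did not overlap between groups for 5 of the 7 tested genes in knock-out against wild-type (59.7% of all genes), for 7 in ΔTAD against wild-type (63.1%) and for 5 in knock-out against ΔTAD (52.8%). Without F3 these were 4 of 6 in knock-out and 6 of 6 in ΔTAD against wild-type. Called with a change of at least 1 on the log2 scale were F3 in knock-out cells (7.66% of all genes), F3, F7 and Plaur in ΔTAD cells (9.31%), and Plau and Pros1 between knock-out and ΔTAD cells (3.93%). Of these, the F3 calls against wild-type carry no weight and the F7 call carries little. Without ΔTAD replicate 1 the calls of Procr and Pros1 between knock-out and ΔTAD were lost, and no other call of the 7 genes changed.

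**Figure D2:**
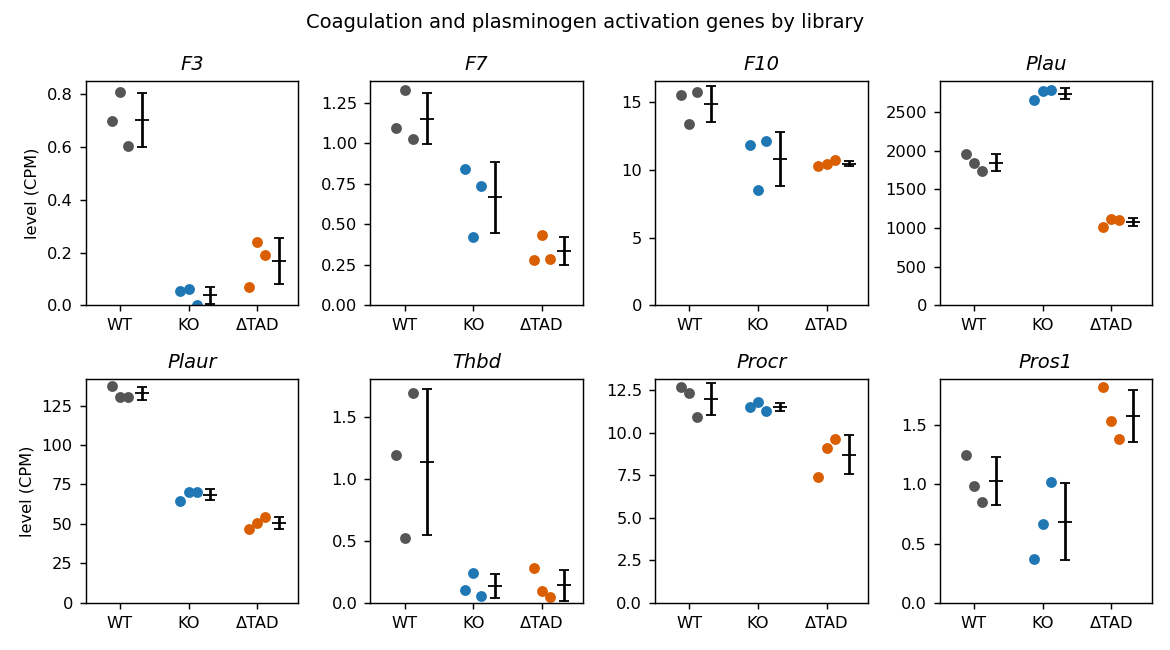
CPM of the 8 genes with any count in each library of wild-type (WT), knock-out (KO) and ΔTAD cells, with the mean and SD beside the 3 points of each genotype. Plau points lie highest in knock-out and lowest in ΔTAD libraries, whereas Plaur points lie highest in wild-type libraries.

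Urokinase, the protease that turns plasminogen into plasmin, moved in opposite directions in the engineered cells. Plau (ENSMUSG00000021822, chr14:20836660-20843385 on GRCm38, plus strand) reached 1955, 1842 and 1738 CPM in wild-type libraries, against 2652, 2775 and 2785 in knock-out and 1017, 1115 and 1105 in ΔTAD libraries. No library of one genotype reached the range of another. The level was 1.48-fold higher in knock-out than in wild-type cells (log2 fold change 0.57, SE 0.0353, edgeR adjusted p = 8.47e-13) and 1.71-fold lower in ΔTAD cells (−0.77, SE 0.0354, adjusted p = 1.96e-15). Between knock-out and ΔTAD cells the difference was 2.54-fold (1.34, SE 0.0358, adjusted p = 2.00e-19). Plau transcripts made up 0.189% of the gene counts in wild-type cells, 0.277% in knock-out cells and 0.104% in ΔTAD cells, and its rank by RPKM was 21, 17 and 57. ΔTAD replicate 1 had the lowest Plau level of the 3 ΔTAD libraries, and without it the log2 fold change against wild-type was −0.76 (edgeR adjusted p = 2.05e-19).

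The urokinase receptor fell in both genotypes. Plaur (ENSMUSG00000046223, chr7:24462484-24475968, plus strand), which encodes the lipid-anchored protein that holds urokinase at the cell surface, had 137, 131 and 130 CPM in wild-type libraries, 64.9, 70.4 and 70.5 in knock-out libraries and 47.1, 50.6 and 54.5 in ΔTAD libraries. The groups did not overlap in any pair of genotypes. It was 1.94-fold lower in knock-out (log2 fold change −0.96, SE 0.0416, edgeR adjusted p = 9.35e-16) and 2.61-fold lower in ΔTAD cells (−1.38, SE 0.0431, adjusted p = 1.02e-18). The level was also higher in knock-out than in ΔTAD cells, by 0.43 on the log2 scale (SE 0.0465, edgeR adjusted p = 8.38e-08).

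The balance between urokinase and its receptor, chosen for description after the values were seen, differed by genotype. The ratio of Plau to Plaur RPKM was 15.7, 15.6 and 14.8 in wild-type libraries, 45.2, 43.6 and 43.6 in knock-out libraries and 23.9, 24.4 and 22.4 in ΔTAD libraries. The groups did not overlap, and each of the 3 pairwise comparisons had p = 0.1 by a two-sided exact permutation test, also after adjustment over the 3, the smallest value that 3 against 3 libraries allow.

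**Figure D3:**
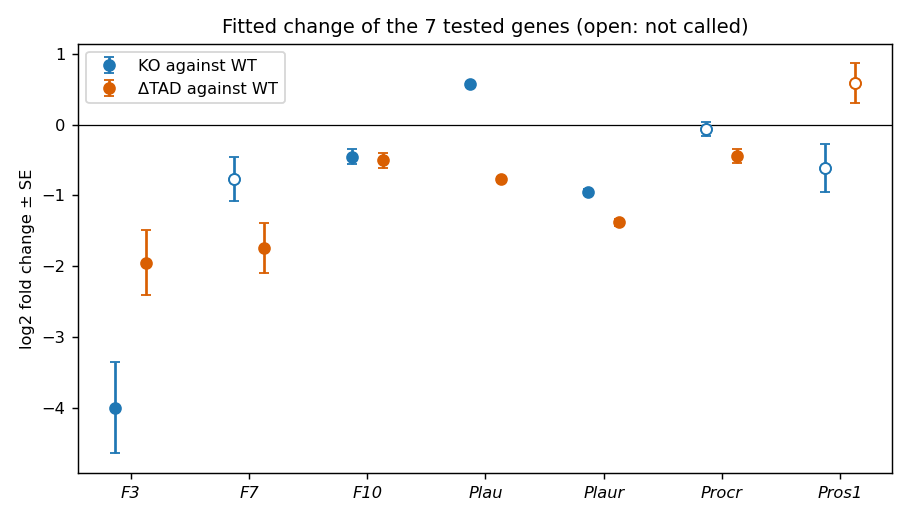
Fitted log2 fold change against wild-type with its SE for the 7 tested genes. F3 passed the filter through wild-type libraries alone, and no ΔTAD library carried F7 past it. Filled points were called and open points were not, with Plau at 0.57 in knock-out and −0.77 in ΔTAD cells.

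Tissue factor transcripts were few and were highest in wild-type cells. F3 (ENSMUSG00000028128, chr3:121723537-121735048, plus strand) was counted 14, 14 and 10 times in wild-type libraries, 1, 1 and 0 times in knock-out libraries and 1, 5 and 4 times in ΔTAD libraries. Every wild-type library was above every other library. Over the pooled counts, 38 in wild-type stood against 2 in knock-out cells, a ratio of 18.8 after scaling (95% exact interval 4.85 to 160), and against 10 in ΔTAD cells, a ratio of 3.96 (1.94 to 8.91). These intervals, like all those on pooled counts, cover counting error only. Because F3 entered the edgeR fit through its wild-type libraries alone, its difference from wild-type is given as counts only. Between knock-out and ΔTAD cells the difference did not pass the threshold (−2.05, SE 0.870, edgeR adjusted p = 0.0580).

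Factor VII and factor X are encoded by neighbouring genes on chromosome 8. F7 (ENSMUSG00000031443, chr8:13026034-13035809, plus strand) had 22, 23 and 17 counts in wild-type libraries, 16, 7 and 13 in knock-out libraries and 4, 9 and 6 in ΔTAD libraries. In CPM, wild-type libraries lay above all others. F7 was 3.36-fold lower in ΔTAD than in wild-type cells (log2 fold change −1.75, SE 0.355, edgeR adjusted p = 0.000160). None of the ΔTAD libraries carried F7 past the filter, so this call carries little weight. The value in knock-out cells was −0.76 (SE 0.309, edgeR adjusted p = 0.0401) and was not called. F7 also did not pass the threshold between knock-out and ΔTAD cells (0.98, SE 0.398, edgeR adjusted p = 0.0470). F10 (ENSMUSG00000031444, chr8:13037308-13056676, plus strand), which encodes the protease that makes thrombin, was more abundant, with 15.5, 13.4 and 15.7 CPM in wild-type libraries, 11.8, 8.52 and 12.1 in knock-out libraries and 10.3, 10.4 and 10.7 in ΔTAD libraries. Its wild-type libraries lay above all others. It was 1.42-fold lower in ΔTAD (−0.50, SE 0.104, edgeR adjusted p = 0.000184) and also lower in knock-out cells (−0.45, SE 0.104, adjusted p = 0.000653). Knock-out and ΔTAD libraries of F10 overlapped (0.05, SE 0.110, edgeR adjusted p = 0.730). F13a1 (ENSMUSG00000039109, chr13:36867178-37050244, minus strand) and the antisense genes Gm49144 and Gm30489 in its span had 0 counts throughout.

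Of the anticoagulant genes, thrombomodulin was low in both engineered genotypes. Thbd (ENSMUSG00000074743, chr2:148404466-148408188, minus strand, 1 exon) had 24, 9 and 28 counts in wild-type libraries, 2, 4 and 1 in knock-out libraries and 4, 2 and 1 in ΔTAD libraries. It missed the filter through wild-type replicate 2, although every wild-type library was above every other one. The pooled counts were 61 in wild-type against 7 in each engineered genotype, a scaled ratio of 8.60 (95% exact interval 3.93 to 22.3) to knock-out and 9.08 (4.15 to 23.5) to ΔTAD cells. These intervals cover counting error only and leave out the spread between wild-type libraries, from 9 to 28 counts. Two-sided exact permutation tests gave p = 0.1 in both, the smallest value possible. With every gene of at least 1 count kept, edgeR gave log2 fold changes of −3.04 (SE 0.496, adjusted p = 7.53e-09) in knock-out and −3.09 (SE 0.495, adjusted p = 3.33e-09) in ΔTAD cells. The size of p depended on the fit. In fits without 1 library that kept Thbd, the edgeR adjusted p was as high as 0.000755 in knock-out and 0.000473 in ΔTAD cells. Those fits kept Thbd through wild-type libraries alone, so their calls carry no weight.

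Thbd and Procr are best known from endothelial cells, and the summed level of endothelial markers differed by genotype as well. The summed level of 6 such markers was 2.66 to 4.04 CPM in wild-type libraries, 0.725 to 0.844 in knock-out libraries and 0.238 to 0.560 in ΔTAD libraries, with 3, 2 and 0 of them above 3 counts in some library and 2 at 0 in every library of each genotype. Pecam1, which leukocytes also carry, had 51, 33 and 40 counts in wild-type libraries, 11, 8 and 12 in knock-out libraries and 3, 3 and 3 in ΔTAD libraries. Kdr, a receptor of vascular endothelial growth factor, had 25, 10 and 12, then 4, 2 and 1, then 1, 0 and 0. Summed over the libraries of each genotype in the same order, Cdh5 had 14, 3 and 3 counts. Tie1 went the other way in ΔTAD cells, with 1, 0 and 6, while Tek had 0, 1 and 0 and Emcn none. The part of these markers in the Thbd and Procr results was not tested. Platelet markers stayed at 0.381 to 1.21 CPM in sum, and hepatocyte, fibroblast and lymphocyte markers reached at most 0.0499, 0.182 and 0.288 CPM in sum.

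Procr (ENSMUSG00000027611, chr2:155751117-155755471, plus strand), the receptor for protein C, was lower in ΔTAD cells and was not called in knock-out cells. It had 12.7, 12.3 and 10.9 CPM in wild-type libraries, 11.5, 11.8 and 11.3 in knock-out libraries and 7.41, 9.08 and 9.66 in ΔTAD libraries. The ΔTAD libraries lay below all others, while wild-type and knock-out libraries overlapped. The difference from wild-type was 1.36-fold in ΔTAD cells (log2 fold change −0.44, SE 0.0988, edgeR adjusted p = 0.000465) and −0.06 in knock-out cells (SE 0.0950, adjusted p = 0.624). Knock-out exceeded ΔTAD cells by 0.38 (SE 0.0998, edgeR adjusted p = 0.00318), a call that was lost without ΔTAD replicate 1 (0.32, adjusted p = 0.0107), knock-out replicate 1 (0.39, adjusted p = 0.0102) or knock-out replicate 2 (0.37, adjusted p = 0.0120).

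Protein S had its highest level in ΔTAD cells. Pros1 (ENSMUSG00000022912, chr16:62854307-62929346, plus strand), the cofactor of activated protein C, had 25, 17 and 14 counts in wild-type libraries, 7, 11 and 18 in knock-out libraries and 26, 32 and 29 in ΔTAD libraries. In CPM, the ΔTAD libraries were above all others, and wild-type and knock-out libraries overlapped. Neither genotype passed the threshold against wild-type (knock-out −0.61, SE 0.337, edgeR adjusted p = 0.133, and ΔTAD 0.58, SE 0.282, adjusted p = 0.0793). Knock-out was 2.28-fold lower than ΔTAD (−1.19, SE 0.309, edgeR adjusted p = 0.00298), a call that was lost without ΔTAD replicate 1 (−1.07, adjusted p = 0.0116), knock-out replicate 1 (−0.87, adjusted p = 0.0334) or knock-out replicate 2 (−1.17, adjusted p = 0.0128). Thbs1 (ENSMUSG00000040152, chr2:118111876-118127133, plus strand) and Gm29233, which overlaps 208 of its exonic bases, had no count.

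The other genes of the same systems were counted from lists of 59 further genes, of which 25 were tested. In knock-out cells 9 were higher, 5 lower and 11 not called, and in ΔTAD cells 12 were higher, 6 lower and 7 not called. Between knock-out and ΔTAD cells 6 were higher in knock-out, 7 lower and 12 not called. Over all genes tested, 22.8% were higher and 22.4% lower in knock-out and 26.3% and 23.4% in ΔTAD cells, each against wild-type. Between knock-out and ΔTAD cells 13.9% were higher and 19.1% lower. The median log2 fold changes of the 25 listed genes in knock-out and ΔTAD cells were 0.10 and 0.08, beside −0.00105 and −0.00332 for all genes. Including the 10 genes, 18 clotting factors gave 6 tested genes, with 2 higher and 2 lower in knock-out and 2 higher and 3 lower in ΔTAD cells, and 11 never exceeded 3 counts. The lower ones were F3 and F10 in knock-out and F3, F7 and F10 in ΔTAD cells. Of these calls, those of F3 carry no weight and that of F7 carries little.

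Of the other lists described, 4 of 12 anticoagulants were tested, with 1 higher in knock-out and 1 higher and 1 lower in ΔTAD cells. All 7 genes of the vitamin K cycle and factor export were tested, with 1 higher and 1 lower in knock-out and 2 higher and 3 lower in ΔTAD cells. Plasminogen receptors gave 2 higher and 1 lower of 5 in knock-out and 3 higher and 1 lower in ΔTAD cells. Among receptors of clotting proteases and of protein S, with their ligand Gas6, 3 of 9 were tested, with 1 higher and 1 lower in knock-out and 2 higher and 1 lower in ΔTAD cells. In the thrombospondin family and its receptors 4 of 7 were tested, with 2 higher and 1 lower in knock-out and 2 higher in ΔTAD cells. Beside these small lists, 22.8% of all genes tested were called higher and 22.4% lower in knock-out, and 26.3% and 23.4% in ΔTAD cells.

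Outside the 10 genes, von Willebrand factor, the carrier of factor VIII, rose most in these lists. Vwf had 5.45 ± 0.384 CPM in wild-type cells, 37.9 ± 0.602 in knock-out cells and 17.8 ± 0.668 in ΔTAD cells (SD, n = 3), with log2 fold changes of 2.79 (edgeR adjusted p = 1.64e-19) and 1.70 (adjusted p = 2.16e-14). Tyro3, a receptor of protein S, fell from 5.54 ± 1.02 CPM to 0.636 ± 0.263 in knock-out (−3.11, edgeR adjusted p = 8.90e-11) and 1.23 ± 0.269 in ΔTAD cells (−2.21, adjusted p = 2.86e-09). F9, which encodes factor IX, rose in knock-out (0.92, edgeR adjusted p = 6.18e-05) and in ΔTAD cells (1.01, adjusted p = 1.45e-05). Nqo1, a quinone reductase, was lower in ΔTAD cells (−2.48, edgeR adjusted p = 5.29e-07) and not called in knock-out cells (−0.79, adjusted p = 0.0123). Plat, the tissue-type activator of plasminogen, was not tested and was picked after its values were seen, with 0, 3 and 4 counts in wild-type libraries, 10, 11 and 11 in knock-out libraries and 4, 6 and 9 in ΔTAD libraries. Its pooled ratio of knock-out to wild-type was 4.63 (95% exact interval 2.01 to 12.4). The most abundant genes of the lists in which Plau and F10 did not lead were Anxa5 (384 ± 3.24 RPKM), S100a10 (249 ± 6.82), Cd36 (86.5 ± 3.94), Lrp1 (76.8 ± 3.35) and Lman1 (26.6 ± 0.705).

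**Figure D4:**
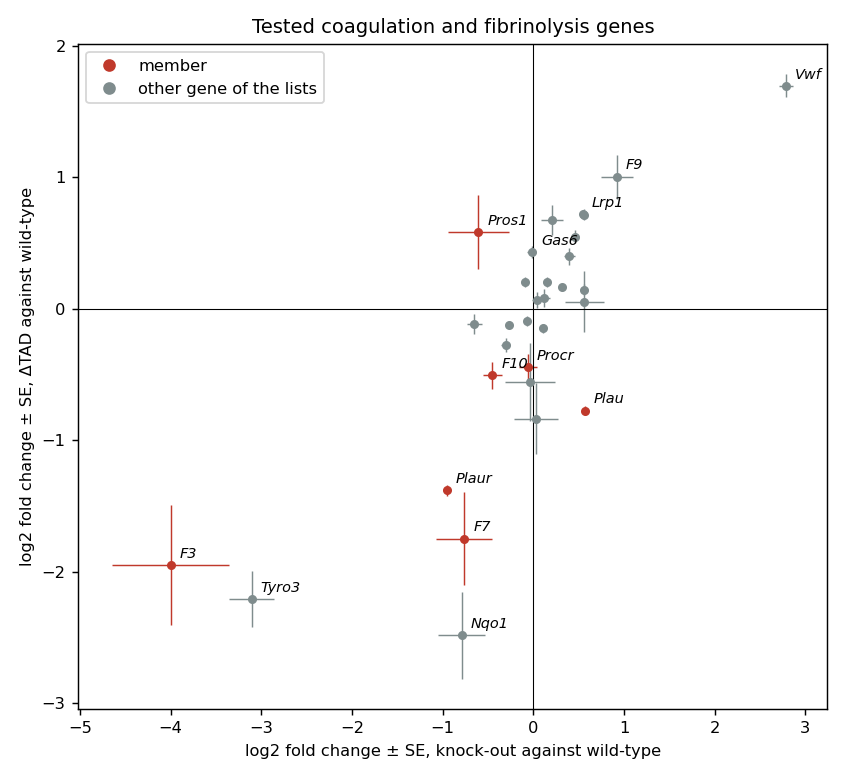
Log2 fold change with SE in ΔTAD (vertical) against knock-out cells (horizontal), both relative to the same wild-type libraries, for tested genes of the lists. Plau lies at 0.57 and −0.77, and Vwf at 2.79 and 1.70. F3 is drawn, although it passed the filter through wild-type libraries alone, and so is F7, which no ΔTAD library carried past it.

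The chromosomal surroundings of most of these genes had medians near 0. Among tested genes within 2000 kilobases, the median log2 fold change in knock-out and ΔTAD cells was 0.06 and 0.08 around Plau (33 genes), −0.01 and 0.06 around Plaur (46 genes), 0.02 and 0.09 around F7 and F10 (36 genes) and −0.03 and 0.07 around Procr (71 genes). Around F3 it was 0.09 and −0.26 (23 genes), the latter in the direction of the gene itself, and around Pros1 −0.02 and 0.02 (6 genes). Neighbours at least as far from 0 as the gene itself in knock-out and ΔTAD cells numbered 2 and 3 around Plau, 5 and 6 around Plaur and 8 and 9 around F10. Around F7 they numbered 3 and 0, around Procr 61 and 15 and around Pros1 0 and 0. These counts take no account of direction. Around Plaur, genes at 19.5 (−3.57 and −3.25), 205.5 (−6.51 and −2.91), −192.1 (−1.43 and −1.81) and −234.9 kilobases (−1.11 and −3.75) were lower, like Plaur. Others were higher, at 624.9 kilobases (2.33 and 2.63) and, in ΔTAD cells, at 832.6 kilobases (1.69). The part of the region in the Plaur result was not tested. F3 is left out of this count, because its fitted change against wild-type carries no weight. That of F7 in ΔTAD cells carries little.

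**Figure D5:**
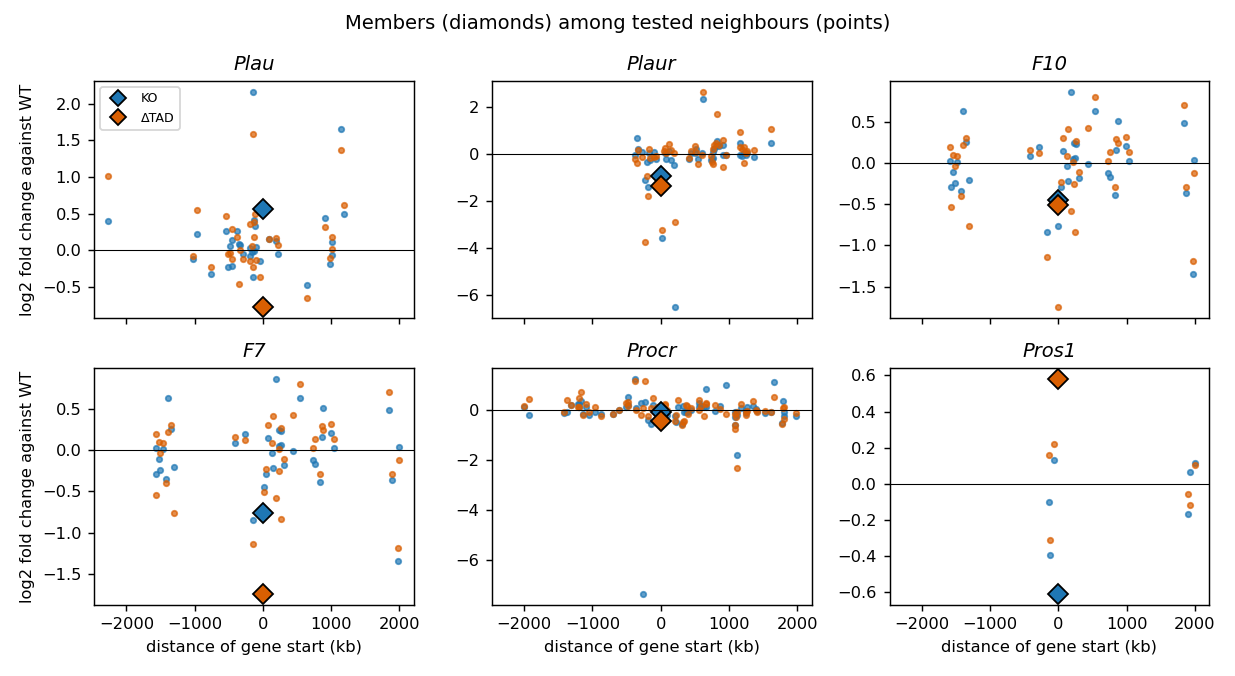
Log2 fold change against wild-type of 6 of the tested genes (diamonds; F3 is not drawn) and of tested genes whose span reaches within 2000 kilobases (points), by distance of the gene start in kilobases. Plau in ΔTAD cells lies below all of its neighbours, while the F10 diamonds lie among theirs.

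Genes with the most similar profile were listed for the members whose genotype means differed by at least 1 on the log2 scale, by Pearson's r of log2 CPM over the 9 libraries, which share genotype and depth. For Plau they were Ptpn22 (r = 0.997), Slc40a1 (0.996) and Gfpt1 (0.996), and 84 genes had r above 0.95. For Plaur they were Car2 (0.997), Gm42047 (0.996) and Slc16a6 (0.996), among 398 genes above 0.95. For F3 they were R3hcc1 (0.991), Xbp1 (0.991) and Ptrhd1 (0.988), among 209. F3 was tested only because it was high in wild-type libraries, so its list carries no weight. No ΔTAD library carried F7 past the filter, so the list of F7 carries little. F7 had Gm30238 (0.979), Prdm2 (0.969) and AI506816 (0.966), and Pros1 had Gm18737 (0.964), Taco1 (0.963) and Inka1 (0.960), with 19 and 3 genes above 0.95.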

How the data were processed

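Total RNA of 9 RAW264.7 libraries was depleted of ribosomal RNA and sequenced. The authors used Trimmomatic, then Hisat2 on GRCm38, and deposited raw HTSeq counts per Ensembl gene without normalization. The strand setting of the counting is not given in the sources used here, so overlapping genes are uncertain. The 5 tally lines (46.8% to 53.3% of records) were left out. Here, edgeR 4.0.16 (R 4.3.3) was run with filterByExpr (minimum count 10, minimum total 15, leaving 14312 genes), TMM, 1 quasi-likelihood model with a mean per genotype, and Benjamini-Hochberg adjusted p under 0.01. The common biological coefficient of variation was 0.0468. RPKM used merged exon lengths of GENCODE. On simulated counts, 86% of genes changed 1.5-fold were called in knock-out and 84% in ΔTAD against wild-type. The simulation changed only a small share of genes, none with few counts, gave every gene the same spread and had no library that stood apart. These shares therefore do not speak for genes with few counts. Alternatives used DESeq2 1.42.0, limma 3.58.1, other scalings and filters. The members and lists were chosen with earlier results of these data known. Named are the members, Cebpd, listed genes called against wild-type with log2 changes of 1 or more in size and 1 CPM in the higher group, otherwise the most abundant gene of a list in wild-type cells, and the 3 genes most like a member. Ratios, Plat, Pecam1 and Kdr were picked after their values were seen, and the other endothelial markers were added to complete their list. Protein sequences, planned for description, were not used here. A listed gene that the rule would name, and what rests on it, is not reported here. No replicate pair agreed within sampling noise (lowest chi-square per degree of freedom 1.98).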

Additional observations from a re-analysis of the deposited data

How the results depend on the processing

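Of 367 alternative values of the member fold changes, 357 kept direction and side of the threshold, 6 no longer passed it (Procr and Pros1 between knock-out and ΔTAD, each without knock-out replicate 1, knock-out replicate 2 or ΔTAD replicate 1), 2 newly passed it (F7 at an adjusted p under 0.05, in knock-out against wild-type and against ΔTAD), and 2 changed sign without passing it (F10 between knock-out and ΔTAD, 0.05, which became −0.01 without knock-out replicate 1 and −0.038 without knock-out replicate 3, with leave-one-out values from −0.038 to 0.195). When calls also had to reach 1 on the log2 scale, 1096, 1333 and 563 genes and 1, 3 and 2 members were called for knock-out and ΔTAD, each against wild-type, and for knock-out against ΔTAD, beside 6468, 7115 and 4730 genes and 4, 6 and 4 members. Member counts against wild-type include F3, whose calls there carry no weight, and in ΔTAD cells F7, whose call carries little. Leaving out 1 library gave 5845 to 6733, 6454 to 7116 and 3737 to 4816 genes and 4 to 5, 6 to 7 and 2 to 4 members, the added member being Thbd, which then passed the filter through wild-type libraries alone, so that this call carries no weight. With library size as the only scaling, 49.5%, 39.6% and 69.0% of calls were higher, beside 50.4%, 52.9% and 42.1%. With the replicate number as a block, 6279, 6900 and 4465 genes and 4, 6 and 4 members were called, and no member's call changed; same-numbered libraries had correlations of deviations from −0.0717 to 0.0200, so the numbers were not taken as pairs. The cause of these shifts was not tested. Genes with few counts, F3, F7, Thbd and Pros1, are limited by depth.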
